A study of Drosophila melanogaster with 8 samples.

Results

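The genotype by stage interaction asks, gene by gene, whether the difference between homozygotes for zen[7] and heterozygotes of the genotype zen[7]/TM3, ftz-lacZ, all whole embryos of Drosophila melanogaster, is the same at gastrulation as at the cellular blastoderm. It was computed as the log2 difference between homozygotes and heterozygotes at stage 6-7 minus the same difference at stage 5. It uses all 8 of the 8 libraries, in 4 groups of 2: homozygotes at stage 6-7, heterozygotes at stage 6-7, homozygotes at stage 5 and heterozygotes at stage 5. A positive value means that homozygotes stood higher, relative to heterozygotes, at stage 6-7 than at stage 5. Since the same 4 group means enter, the value is also the stage change of homozygotes minus that of heterozygotes.

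In homozygotes both copies of chromosome 3 bear zen[7]. In heterozygotes 1 copy is TM3, a balancer with a ftz-lacZ transgene. The 2 genotypes therefore differ along all of chromosome 3, at both stages, and for a gene on that chromosome the loss of zen and the rest of the chromosome cannot be told apart. The embryos compared with homozygotes are heterozygotes and not wild type, and all 4 groups carry at least 1 zen[7] copy by their labels. Homozygotes were recognised by PCR, from a missing lacZ band beside a control band of Dtg. A lacZ band is also given by embryos with 2 TM3 chromosomes, so the heterozygous pools may hold such embryos. Each library came from pooled extracts of staged whole embryos, with N = 100 in the labels, so that fewer cells of a type and less RNA per cell cannot be told apart. The series' text calls the replicates biological, but how the pools relate to each other is not in the labels, and p-values measure only the spread between the 2 pools of each group.

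The gene zen encodes a Hox3-derived homeodomain factor. It is first expressed in a broad dorsal band of the blastoderm and then, under peak Dpp signalling, in the dorsalmost cells, which become the amnioserosa, an extraembryonic epithelium needed for germ band retraction and dorsal closure. Between stage 5 and stage 6-7 the embryo completes cellularization, clears much of its maternal RNA, turns on most zygotic genes and begins to gastrulate. The interaction separates a genotype difference that is constant over this time from one that appears, grows or closes.

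Gene counts summed to 29669956 to 37770105 per library, and 9360 genes passed the filter on low counts. Levels are CPM, the counts scaled to a common library size with TMM. A gene was called where edgeR's quasi-likelihood test, adjusted by Benjamini-Hochberg over these 9360 genes, gave a p under 0.05. Stage was the main axis of the data, with 76% of the variance on the first principal component. On this axis, homozygotes lay at 49.7 and 51.1 and heterozygotes at 38.9 and 48.8 at stage 6-7, and homozygotes at -56.2 and -42.1 and heterozygotes at -45.1 and -45.1 at stage 5. Homozygous stage 5 replicate 1 thus lay farther from the gastrula libraries, and heterozygous stage 6-7 replicate 1 nearer to the blastoderm libraries, than their replicates. Both lie on the side that makes the stage distance longer in homozygotes (99.6) than in heterozygotes (88.9), and both touch every value below. Call counts and the medians of some lists are therefore also given without these 2 libraries, an alternative chosen after seeing the data. For the other lists and most single genes it is not given, and the part of staging in single genes was not tested.

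RNA of zen itself stood at 58.9 and 53.8 CPM in homozygotes and 41.0 and 58.2 CPM in heterozygotes at stage 6-7, against 154 and 134 CPM in homozygotes and 112 and 106 CPM in heterozygotes at stage 5. The homozygotes lay above the heterozygotes at stage 5 and overlapped them at stage 6-7, so the RNA level does not check the genotype labels. Its interaction was -0.21 on the log2 scale (95% interval -0.63 to 0.21, adjusted p = 0.857).

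The genotype difference changed between the stages in few genes. The interaction was called for 7 of the 9360 tested genes (0.0748%), 1 of them higher (0.0107%) and 6 lower (0.0641%) at stage 6-7. Of the 7, 5 are genes that were below heterozygotes at both stages and farther below at gastrulation: the receptor gene mthl8, the cryptochrome gene cry, Sarm, the aminopeptidase gene S-Lap1 and the purine synthesis gene Prat2. The glypican gene dlp was the 1 gene called higher, and CG8860 changed sides between the stages. Of these genes all but CG8860 lie on chromosome 3, which holds 44.0% of the tested genes that were placed.

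**Figure D1:**
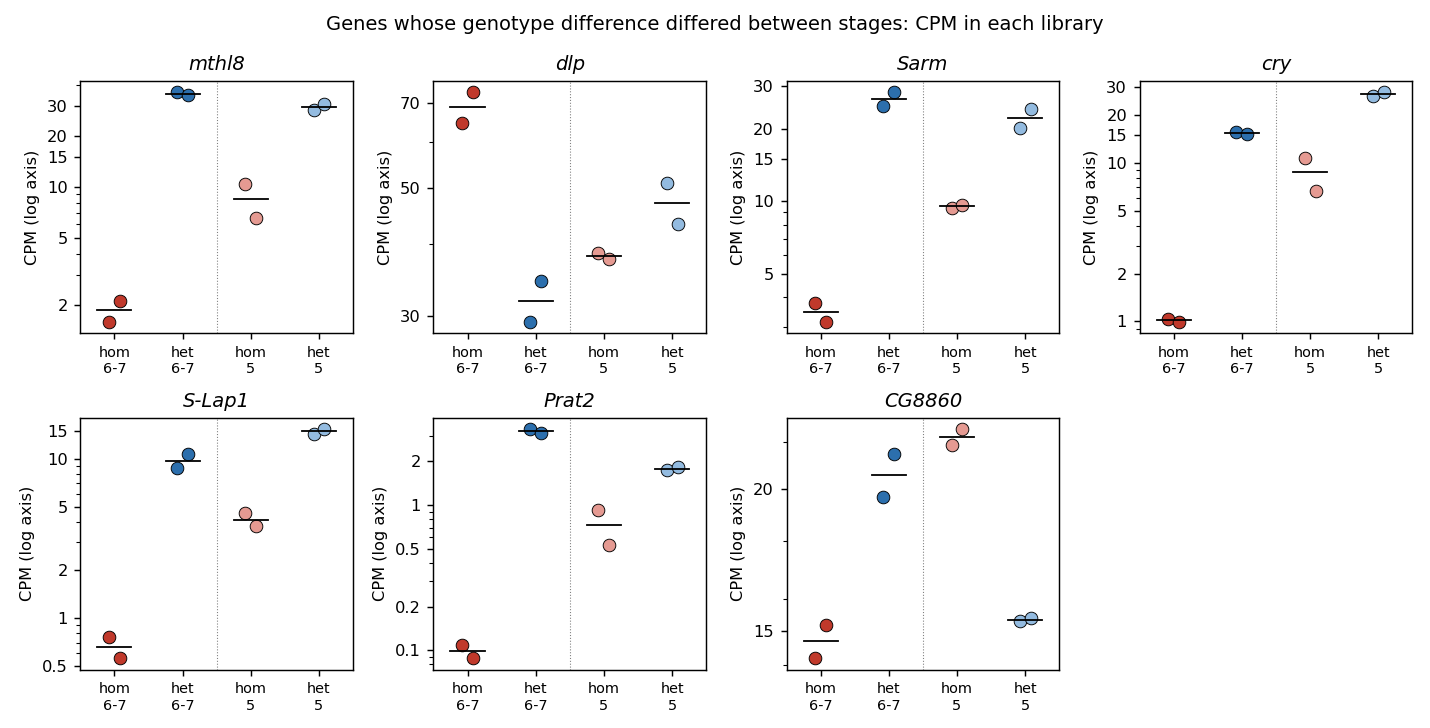
CPM of the 7 genes called for the interaction, on a log axis, in homozygotes (hom, red) and heterozygotes (het, blue) at stage 6-7 (left, dark) and stage 5 (right, light). Each point is 1 library and each line the mean of 2; in mthl8 the homozygotes lie at 1.59 and 2.11 CPM at the later stage and at 10.4 and 6.5 CPM at the earlier one, while the heterozygotes stay between 28.3 and 36.1 CPM.

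The gene mthl8 (FBgn0052475) encodes a G protein-coupled receptor of the methuselah family and lies near the tip of arm 3L (22428 to 26308, plus strand, BDGP6.54). It stood at 1.59 and 2.11 CPM in homozygotes and 36.1 and 35.1 CPM in heterozygotes at stage 6-7, against 10.4 and 6.5 CPM in homozygotes and 28.3 and 30.8 CPM in heterozygotes at stage 5. Heterozygotes lay between 28.3 and 36.1 CPM at both stages (stage change 0.27 on the log2 scale, adjusted p = 0.181), while homozygotes fell by 2.18 between stage 5 and stage 6-7 (adjusted p = 1.72e-06). The genotype difference was -4.27 at stage 6-7 and -1.82 at stage 5, both called, and differed between them by -2.45 (SE 0.275, 95% interval -3.04 to -1.86, adjusted p = 0.00296). The 12 tested members of the methuselah family include the gastrulation receptor gene mthl1 (log2 interaction 0.20). Only mthl8 had an unadjusted p under 0.05, which is 8.33% of the family, against 6.72% of all genes.

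Sarm (FBgn0262579, arm 3L, 8063874 to 8108897, plus strand) encodes a TIR-domain enzyme that breaks down NAD+ and is known from axon degeneration. Its levels were 3.78 and 3.17 CPM in homozygotes and 24.8 and 28.3 CPM in heterozygotes at stage 6-7, against 9.4 and 9.68 CPM in homozygotes and 20.1 and 24.2 CPM in heterozygotes at stage 5. Homozygotes lay below heterozygotes at both stages. As for mthl8, the stage change of heterozygotes did not pass the test (0.26, adjusted p = 0.109), and homozygotes fell by 1.46 (adjusted p = 2.56e-06). The interaction was -1.72 (SE 0.205, 95% interval -2.16 to -1.28, adjusted p = 0.00296), made of genotype differences of -2.93 at stage 6-7 and -1.21 at stage 5.

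The blue-light photoreceptor gene cry (FBgn0025680, arm 3R, 19212154 to 19215442, plus strand), a component of the circadian clock in the adult brain, fell with stage in both genotypes. It stood at 1.03 and 0.998 CPM in homozygotes and 15.7 and 15.3 CPM in heterozygotes at stage 6-7, against 10.8 and 6.61 CPM in homozygotes and 26.3 and 27.8 CPM in heterozygotes at stage 5. Its stage change was -3.09 in homozygotes and -0.80 in heterozygotes, which is an interaction of -2.29 (SE 0.296, 95% interval -2.93 to -1.65, adjusted p = 0.0055). The period gene per had an interaction of 0.16 and the timeless gene tim of 0.37. Of 10 tested clock genes only cry had an unadjusted p under 0.05 (10%, against 6.72% of all genes). The gene overlaps lncRNA:CR46393 and, on the other strand, vib, and reads of these pairs may be shared.

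S-Lap1 (FBgn0035915, arm 3L, 8617235 to 8619474, plus strand) belongs to a family of leucyl aminopeptidases that is known from sperm, and its reads could be split with paralogues. It had 0.755 and 0.558 CPM in homozygotes and 8.71 and 10.7 CPM in heterozygotes at stage 6-7, and 4.54 and 3.75 CPM in homozygotes and 14.3 and 15.3 CPM in heterozygotes at stage 5. The homozygous libraries lay below the heterozygous ones at both stages, and the interaction was -2.03 (SE 0.294, 95% interval -2.66 to -1.40, adjusted p = 0.0155). Leaving out homozygous stage 6-7 replicate 2 ended the call (adjusted p = 0.147).

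Prat2 (FBgn0041194, arm 3L, 6911999 to 6914876, minus strand) encodes an amidophosphoribosyltransferase, the enzyme of the first committed step of purine synthesis. It was the lowest of the 7 genes, at 0.108 and 0.088 CPM in homozygotes and 3.33 and 3.13 CPM in heterozygotes at stage 6-7, against 0.929 and 0.531 CPM in homozygotes and 1.74 and 1.83 CPM in heterozygotes at stage 5. These levels rest on 4 and 3 counts in homozygotes and 121 and 108 counts in heterozygotes at stage 6-7, and on 25 and 18 counts in homozygotes and 60 and 66 counts in heterozygotes at stage 5. The stage change went in opposite directions, down in homozygotes (log2 -2.82, adjusted p = 0.000229) and up in heterozygotes (0.86, adjusted p = 0.0162). Its interaction of -3.68 had the widest interval of the 7 (SE 0.569, 95% interval -4.90 to -2.45, adjusted p = 0.0239), and the genotype difference alone was called at stage 6-7 (-4.99, adjusted p = 8.88e-06) and not at stage 5 (-1.31, adjusted p = 0.0631). The call was lost without 7 of the 9 sets of libraries left out, with adjusted p of 0.0648 to 0.147.

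The only gene called in the other direction was dlp (FBgn0041604, arm 3L, 14632601 to 14671609, plus strand), which encodes a glypican, a cell-surface heparan sulfate proteoglycan that binds and spreads Wingless, Hedgehog and Dpp ligands. It stood at 64.6 and 72.9 CPM in homozygotes and 29.4 and 34.5 CPM in heterozygotes at stage 6-7, against 38.6 and 37.7 CPM in homozygotes and 50.9 and 43.2 CPM in heterozygotes at stage 5. Homozygotes lay above heterozygotes at gastrulation and below them at the blastoderm, although the earlier difference was not called (log2 1.11 with an adjusted p of 0.000113 at stage 6-7, and -0.30 with 0.297 at stage 5). Seen along stage, dlp rose in homozygotes (0.85, adjusted p = 2.75e-05) and fell in heterozygotes (-0.56, adjusted p = 0.00111), an interaction of 1.41 (SE 0.167, 95% interval 1.05 to 1.77, adjusted p = 0.00296).

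No other gene of glypican and heparan sulfate synthesis was called, of 12 tested. The second glypican gene, dally, had 52.3 and 60.8 CPM in homozygotes and 34.4 and 56.9 CPM in heterozygotes at stage 6-7, and 2.6 and 5.55 CPM in homozygotes and 6.96 and 7.25 CPM in heterozygotes at stage 5 (interaction 1.08, unadjusted p = 0.0697). The sulfatase gene Sulf1, which trims heparan sulfate, had an interaction of 0.58 (unadjusted p = 0.0102, adjusted p = 0.466), and it shares bases with CG44044 and SF2. The biosynthetic enzymes sfl, ttv, botv and sotv lay between -0.20 and 0.12.

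CG8860 (FBgn0033691, arm 2R, 12179483 to 12179902, minus strand, antisense to asRNA:CR45264) was the only one of the 7 off chromosome 3, and the only tested gene called in opposite directions at the 2 stages. Its levels were 14.2 and 15.2 CPM in homozygotes and 19.7 and 21.5 CPM in heterozygotes at stage 6-7, against 21.9 and 22.6 CPM in homozygotes and 15.3 and 15.4 CPM in heterozygotes at stage 5. Homozygotes lay below at the later stage (log2 -0.49, adjusted p = 0.0442) and above at the earlier one (0.54, adjusted p = 0.0294), with no overlap at either. The interaction was -1.03 (SE 0.16, 95% interval -1.37 to -0.68, adjusted p = 0.0239). The call was lost when genes off chromosome 3 were normalised and adjusted among themselves (adjusted p = 0.104), and without any 1 of heterozygous stage 5 replicate 1 (0.163) or 2 (0.113), homozygous stage 6-7 replicate 1 (0.141) or 2 (0.147), or heterozygous stage 6-7 replicate 2 (0.0555).

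**Figure D2:**
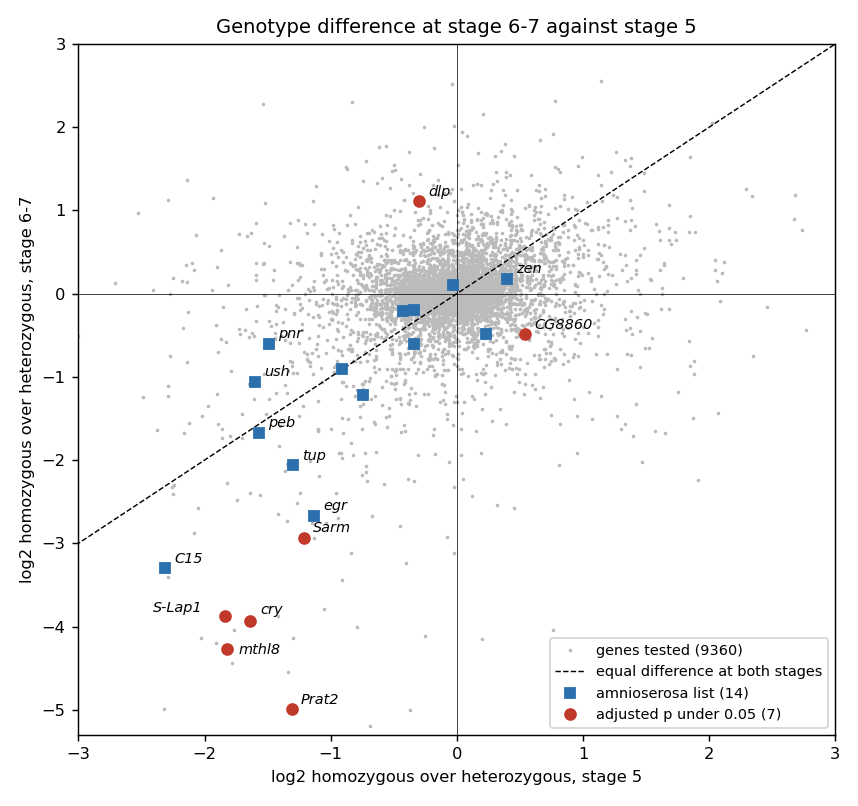
Log2 genotype difference (homozygous over heterozygous) at stage 6-7 on the vertical axis against stage 5 on the horizontal axis, for all 9360 tested genes, with the amnioserosa list in blue and the 7 called genes in red; 23 genes lie outside the axes. Genes on the dashed line have equal differences at both stages; mthl8, cry, S-Lap1, Sarm and Prat2 lie well below it, dlp at 1.11 and -0.30 above it, and peb at -1.67 and -1.57 close to it.

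Most genes called for genotype at a single stage were not shown to differ between the stages. At stage 6-7, 166 genes were called for genotype (1.77%) and at stage 5, 152 (1.62%). Of the 103 genes called at stage 6-7 and not at stage 5, the interaction was called for 2 (dlp and Prat2), and 60 had an unadjusted p under 0.05 for it. Of the 89 genes called at stage 5 and not at stage 6-7, it was called for 0 by edgeR (24 by DESeq2 and 0 by limma-voom), and an unadjusted p under 0.05 was found for 56 higher and 7 lower. Among the 62 genes that both stages called in 1 direction, 4 passed: mthl8, cry, Sarm and S-Lap1. These counts share libraries with the interaction, so the shares with a low unadjusted p (58.3% and 70.8% of the genes called at 1 stage, against 6.72% of all genes) describe the same differences again.

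Read along stage, most genes called in both genotypes moved in the same direction. Stage calls numbered 5629 in homozygotes (60.1%) and 5142 in heterozygotes (54.9%), and 4567 genes were called in both genotypes in the same direction. Only 10 genes were called in opposite directions, and 3 of these passed the interaction: dlp, Prat2 and CG8860. The other 7, CG13653, tamo, eIF4B, CG7156, CG7924, CG42390 and Cyp304a1, had adjusted p of 0.0686 to 0.319. Among them the translation factor gene eIF4B had 175 and 188 CPM in homozygotes and 207 and 220 CPM in heterozygotes at stage 6-7, and 217 and 219 CPM in homozygotes and 178 and 173 CPM in heterozygotes at stage 5. Its groups did not overlap at either stage, but genotypes apart at 1 or both stages were a condition for choosing it. Its interaction was small and narrow, at -0.54 (95% interval -0.79 to -0.30, adjusted p = 0.125).

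Across all tested genes the interaction had a median of 0.012 on the log2 scale, with 5th and 95th percentiles of -0.76 and 0.78. Its median standard error was 0.196, and a 95% interval reached 0.422 to either side of a gene's value at the median. An interaction beyond 1 in either direction was measured for 605 genes, and for 47 of the 6177 genes that averaged 5 CPM or more. An unadjusted p under 0.05 was found for 629 genes (6.72%), 369 higher (3.94%) and 260 lower (2.78%). Without the 2 libraries that stood apart, 212 of the 369 and 139 of the 260 kept that p and direction, and the calls numbered 35 (13 higher, 22 lower, 6 of the 7 among them).

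The genes ranked next were taken from those that edgeR did not call. The ranking took only genes whose genotypes lay apart at 1 or both stages, so that lack of overlap is no separate result. The gene smg encodes Smaug, an RNA-binding protein that directs the clearance of maternal RNA. It had 96.5 and 91.5 CPM in homozygotes and 82.9 and 94.5 CPM in heterozygotes at stage 6-7, and 132 and 145 CPM in homozygotes and 251 and 212 CPM in heterozygotes at stage 5. The groups overlapped at the later stage only, and the interaction was 0.82 (SE 0.146, adjusted p = 0.0545). Pumilio, another repressor of maternal RNA encoded by pum, had 28.3 and 32.0 CPM in homozygotes and 27.2 and 35.2 CPM in heterozygotes at stage 6-7, and 113 and 101 CPM in homozygotes and 206 and 174 CPM in heterozygotes at stage 5 (interaction 0.78, adjusted p = 0.164). The deubiquitinase gene Usp1 (0.99, adjusted p = 0.0545), the lysosomal transporter gene spin (0.82), CG10479 (0.78), tamo (1.17) and side-V (1.05), with adjusted p up to 0.0845, had genotype differences of -0.72 to -0.98 at stage 5 and of -0.02 to 0.22 at stage 6-7. DESeq2 called all 7 of these genes, with adjusted p of 0.000337 (Usp1) to 0.0132 (pum).

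For Z600 the genotypes overlapped at stage 5 and not at stage 6-7. Z600 encodes frühstart, an inhibitor of mitotic cyclin-dependent kinase that holds back division in the gastrula. It stood at 2.19 and 2.7 CPM in homozygotes and 21.0 and 15.8 CPM in heterozygotes at stage 6-7, against 391 and 232 CPM in homozygotes and 351 and 305 CPM in heterozygotes at stage 5. At stage 6-7 both homozygous libraries were low, and the interaction was -2.84 (SE 0.429, 95% interval -3.88 to -1.80). By edgeR it was not called (adjusted p = 0.131), and by DESeq2 it was (2.02e-07). Its value in edgeR was -2.41 without homozygous stage 5 replicate 1 and -3.13 without replicate 2. Either omission takes the spread between these 2 libraries out of the fit, so no call is drawn from it. Its exons overlap gdl on the same strand. Another inhibitor of cyclin-dependent kinase, the p21/p27-type gene dap, was called lower in homozygotes at both stages (log2 -1.79 at stage 6-7 and -0.84 at stage 5), with an interaction of -0.95 (adjusted p = 0.217).

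The adenylyl cyclase gene Ac78C had 46.7 and 46.9 CPM in homozygotes and 27.0 and 28.6 CPM in heterozygotes at stage 6-7, and 262 and 293 CPM in homozygotes and 100 and 82.6 CPM in heterozygotes at stage 5. Homozygotes lay above heterozygotes at both stages, by 0.75 at stage 6-7 and 1.60 at stage 5 on the log2 scale (interaction -0.85, adjusted p = 0.0536). For CG32473 homozygotes had 10.2 and 10.7 CPM and heterozygotes 7.16 and 6.75 CPM at stage 6-7, and homozygotes 82.7 and 73.3 CPM and heterozygotes 106 and 93 CPM at stage 5 (interaction 0.94, adjusted p = 0.0536). The serotonin receptor gene 5-HT2A had an interaction of 0.81 (adjusted p = 0.0686), with genotype differences of -0.28 at stage 6-7 and -1.09 at stage 5. Further genes by the same ranking were Neu2 (1.21) and FBgn0038220 (1.39, no symbol in the annotation used) in the higher direction. In the lower direction they were CG13653 (-1.37), CG14111 (-1.18), lov (-0.66), the organic cation transporter gene Orct2 (-1.07), CG1146 (-1.13), lncRNA:marge (-0.53) and the fucosyltransferase gene FucTA (-1.43), with adjusted p of 0.0686 to 0.164 for these 9. CG14111 overlaps CG14107 and asRNA:CR45886, FucTA overlaps Msh6, both on the opposite strand, and lov overlaps CG43106.

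Genes of the amnioserosa were chosen for their known expression in the tissue that depends on zen. Of 14 members, all tested, 0 were called for the interaction by edgeR, and their median was -0.15, against 0.01 over all genes. In single genes, 7 of the 14 had an unadjusted p under 0.05, against 6.72% of all genes; 2 were higher and 5 lower. DESeq2 called 1 of them, tup, and limma-voom 0. Their median genotype difference was -0.76 at stage 6-7 and -0.82 at stage 5. Without the 2 libraries that stood apart the list's median was -0.10. The values of egr and zen2 were then -0.83 and -1.08, from a fit that leaves 1 library in 2 of the groups.

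The members farther below heterozygotes at stage 6-7 included tup, a LIM-homeodomain factor of the dorsal ectoderm. It had 20.3 and 18.4 CPM in homozygotes and 73.1 and 88.3 CPM in heterozygotes at stage 6-7, and 19.7 and 19.7 CPM in homozygotes and 42.8 and 54.4 CPM in heterozygotes at stage 5. Homozygotes held 1 level across stages (log2 -0.03) while heterozygotes rose by 0.73, giving an interaction of -0.76 (95% interval -1.16 to -0.36, adjusted p = 0.208; DESeq2 adjusted p = 0.0459). The homeobox gene C15 had 1.94 and 1.23 CPM in homozygotes and 13.1 and 18.3 CPM in heterozygotes at stage 6-7, and 1.04 and 0.65 CPM in homozygotes and 4.03 and 4.23 CPM in heterozygotes at stage 5 (interaction -0.99, adjusted p = 0.635). Ance, an angiotensin-converting enzyme homologue, had an interaction of -0.49 (adjusted p = 0.265) and zen2, the neighbouring duplicate of zen, of -0.71 (0.626).

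The TNF ligand gene egr had the lowest value of the list and a wide spread. It stood at 15.1 and 14.1 CPM in homozygotes and 98.5 and 87.5 CPM in heterozygotes at stage 6-7, against 113 and 54.9 CPM in homozygotes and 172 and 194 CPM in heterozygotes at stage 5. Its homozygous stage 5 libraries differed from each other more than any other pair of egr replicates, and the interaction was -1.54 (SE 0.464, adjusted p = 0.584). The value was -0.93 without replicate 1 and -1.93 without replicate 2. Either omission takes the spread between these 2 libraries out of the fit, so no call is drawn from it.

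The 2 members with higher values belong to the GATA pathway. The Friend-of-GATA cofactor gene ush had 100 and 96.8 CPM in homozygotes and 189 and 220 CPM in heterozygotes at stage 6-7, and 32.1 and 29.9 CPM in homozygotes and 85.6 and 102 CPM in heterozygotes at stage 5. Homozygotes lay below at both stages, with genotype differences of -1.06 at stage 6-7 and -1.60 at stage 5 (interaction 0.54, 95% interval 0.22 to 0.87, adjusted p = 0.291). The GATA factor gene pnr had 88.6 and 93.2 CPM in homozygotes and 131 and 144 CPM in heterozygotes at stage 6-7, and 7.21 and 12.9 CPM in homozygotes and 29.6 and 27.4 CPM in heterozygotes at stage 5. It rose steeply in both genotypes, by 3.16 and 2.27, and its interaction was 0.89 (95% interval 0.30 to 1.48, adjusted p = 0.404). Across the alternative settings this value ran from 0.49 to 1.43. Leaving out homozygous stage 5 replicate 2 gave the highest, and rests that group on 1 of the 2 libraries that stood apart.

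The GATA factor gene grn, which is not in the amnioserosa list, had 35.7 and 42.0 CPM in homozygotes and 55.1 and 65.9 CPM in heterozygotes at stage 6-7, and 8.66 and 11.6 CPM in homozygotes and 28.3 and 30.4 CPM in heterozygotes at stage 5. Its groups lay apart at both stages, and its interaction was 0.89 (SE 0.202, 95% interval 0.46 to 1.32, adjusted p = 0.162; DESeq2 adjusted p = 0.0092). Of the 6 tested GATA genes 0 were called by edgeR. An unadjusted p under 0.05 was found for 3 (pnr, ush and grn), all higher (50%, against 6.72% of all genes). The list's median was 0.72. That median was 0.49 without the 2 libraries that stood apart, and 0.81 without heterozygous stage 6-7 replicate 2. The blood and gut factor gene srp, at 243 and 248 CPM in homozygotes and 250 and 311 CPM in heterozygotes at stage 6-7 and 159 and 195 CPM in homozygotes and 164 and 221 CPM in heterozygotes at stage 5, had an interaction of -0.07.

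**Figure D3:**
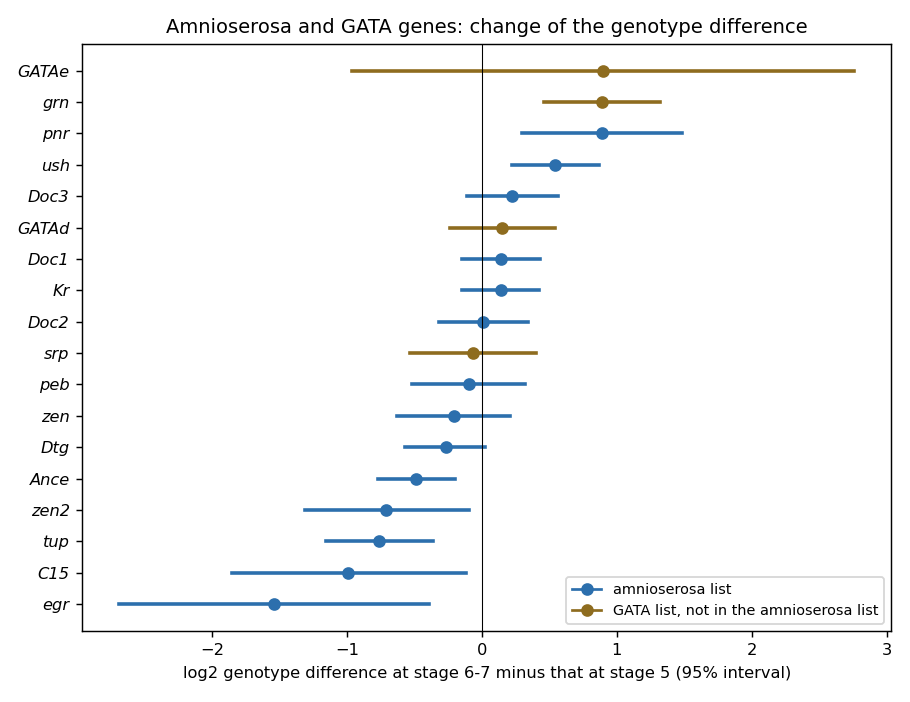
Interaction (log2 genotype difference at stage 6-7 minus that at stage 5) of each member of the amnioserosa list (blue) and of the other GATA genes (brown); points are fitted values and lines 95% intervals over 8 libraries. The genes grn, pnr and ush lie above 0 and Ance, zen2, tup, C15 and egr below it, with intervals that leave out 0 before adjustment; GATAe has the widest interval.

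For the other amnioserosa genes the interval of the interaction included 0. The zinc-finger gene peb (hindsight), which maintains the amnioserosa, had 41.5 and 31.9 CPM in homozygotes and 111 and 123 CPM in heterozygotes at stage 6-7, and 16.6 and 15 CPM in homozygotes and 42.1 and 51.8 CPM in heterozygotes at stage 5. Both groups rose with stage by like amounts (1.22 in homozygotes and 1.31 in heterozygotes), and the interaction was -0.10 (95% interval -0.52 to 0.32). The T-box genes Doc1, Doc2 and Doc3 had interactions of 0.14, 0.01 and 0.22, the gap gene Kr of 0.14 and Dtg of -0.27. For peb that interval bounds a change of the genotype difference at -0.52 to 0.32, and for Doc2 at -0.32 to 0.34.

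The Dpp/BMP pathway sets the dorsal pattern together with zen. Of its 18 tested genes 0 were called by edgeR, and the median was 0.04. An unadjusted p under 0.05 was found for 3 in the higher direction and 2 in the lower (27.8%, against 6.72% of all genes). Among the receptors, the type I receptor gene tkv had 200 and 195 CPM in homozygotes and 158 and 227 CPM in heterozygotes at stage 6-7, and 75.9 and 84.3 CPM in homozygotes and 132 and 129 CPM in heterozygotes at stage 5. Its groups overlapped at the later stage only (interaction 0.74, adjusted p = 0.239; DESeq2 adjusted p = 0.0298), and it overlaps TpnC25D on the opposite strand. The other type I receptor gene, sax, had an interaction of 0.33, and the nuclear effector gene shn of 0.41 (adjusted p = 0.6 and 0.557). Among the extracellular members, the metalloprotease gene tok had 47.4 and 49.6 CPM in homozygotes and 97.6 and 103 CPM in heterozygotes at stage 6-7, and 101 and 103 CPM in homozygotes and 145 and 154 CPM in heterozygotes at stage 5 (interaction -0.49, adjusted p = 0.208). The ligand genes dpp (0.29), scw (-0.10) and gbb (0.10), the antagonist gene sog (-0.05) and the protease gene tld (0.04) had unadjusted p above 0.05.

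The mesoderm, neurectoderm, Hox and segment polarity lists had medians above 0, and these medians moved with 2 libraries. In the mesoderm list 0 of 16 members were called by edgeR. An unadjusted p under 0.05 was found for 2 (12.5%, against 6.72% of all genes), Mef2 (0.86) and T48 (0.63). Of the 16 members, 15 lay above 0, with a median of 0.21. In the neurectoderm list of 14 tested genes the median was 0.36, among the 11 Hox genes it was 0.46 and among the 12 segment polarity genes 0.18. Each of these lists had 0 calls by edgeR. An unadjusted p under 0.05 was found for 1, 5 and 1 of their genes (7.14%, 45.5% and 8.33%). Without homozygous stage 5 replicate 1 and heterozygous stage 6-7 replicate 1 these medians were 0.02 (9 of 16 members above 0), 0.00, 0.04 and -0.04. Without the replicate of either library they were larger: 0.47, 0.54, 0.73 and 0.43 without homozygous stage 5 replicate 2, and 0.46, 0.46, 0.60 and 0.33 without heterozygous stage 6-7 replicate 2.

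The next genes are examples and do not test how the medians depend on the 2 libraries. The mesoderm gene zfh1 had 212 and 213 CPM in homozygotes and 162 and 222 CPM in heterozygotes at stage 6-7, and 11.1 and 26.7 CPM in homozygotes and 39.5 and 32.2 CPM in heterozygotes at stage 5. The heart gene tin had 84.1 and 76.6 CPM in homozygotes and 66.5 and 81.2 CPM in heterozygotes at stage 6-7, and 4.35 and 10.5 CPM in homozygotes and 14.6 and 11 CPM in heterozygotes at stage 5. In both, the lowest library of each stage was homozygous stage 5 replicate 1 or heterozygous stage 6-7 replicate 1, and the interactions of 1.06 and 0.88 had unadjusted p of 0.14 and 0.125. These 2 genes were chosen after their values were seen. The signal gene hh had 56.6 and 52.0 CPM in homozygotes and 46.3 and 54.5 CPM in heterozygotes at stage 6-7, and 5.61 and 9.21 CPM in homozygotes and 11.2 and 10.8 CPM in heterozygotes at stage 5, with an interaction of 0.66 (unadjusted p = 0.0175, adjusted p = 0.584).

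Of the 11 Hox cluster genes, bcd (1.09), Antp (0.58), Dfd (0.52) and Abd-B (0.46) had an unadjusted p under 0.05 in the higher direction and zen2 in the lower. The maternal anterior determinant bcd, a neighbour and duplicate of zen, stood at 1.11 and 0.763 CPM in homozygotes and 0.882 and 1.1 CPM in heterozygotes at stage 6-7, against 3.75 and 2.04 CPM in homozygotes and 6.76 and 6.14 CPM in heterozygotes at stage 5. The homeotic gene Antp had 130 and 127 CPM in homozygotes and 91.4 and 135 CPM in heterozygotes at stage 6-7, and 24.7 and 33.7 CPM in homozygotes and 40.8 and 36.6 CPM in heterozygotes at stage 5. Both overlapped between genotypes at stage 6-7 and lay lower in homozygotes at stage 5, with adjusted p of 0.635 for bcd and 0.725 for Antp. All 11 genes lie on chromosome 3.

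Lists tied to the blastoderm held 0 calls by edgeR. Of 10 tested cellularization genes, 2, halo (-0.62) and term (-0.41), had an unadjusted p under 0.05, against 6.72% of all genes, and the list's median was -0.10. The summed level of the 10 tested genes was 2250 and 2220 CPM in homozygotes and 2250 and 2330 CPM in heterozygotes at stage 6-7. At stage 5 it was 6260 and 5150 CPM in homozygotes and 5820 and 5290 CPM in heterozygotes. Homozygous stage 5 replicate 1 was the highest of the 8 libraries here. Of 13 tested regulators of maternal RNA 0 were called by edgeR, 2 by DESeq2 and 0 by limma-voom. The 2, smg and pum, had an unadjusted p under 0.05 (15.4%), and the median was 0.11. The gap and terminal genes (14 tested, median -0.04), pair-rule genes (9 tested, median -0.01) and zygotic regulators of the cell cycle (11 tested, median -0.04) had 1, 1 and 2 genes with an unadjusted p under 0.05 (7.14%, 11.1% and 18.2%). DESeq2 called 1 of the cell cycle regulators, Z600.

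Signalling lists beyond BMP held 1 call. In the Toll and Dorsal list of 14 tested genes it was Sarm; the sulfotransferase gene pip, which acts in the ovary to set the ventral side, had 0.216 and 0.147 CPM in homozygotes and 2.34 and 4.52 CPM in heterozygotes at stage 6-7, and 0.558 and 0.266 CPM in homozygotes and 1.51 and 1.52 CPM in heterozygotes at stage 5. Its homozygous libraries lay lower at both stages, with an interaction of -2.29 (adjusted p = 0.375), and it overlaps fal on the opposite strand. In the JNK and TNF list of 13 tested genes, the Fos gene kay had 4.83 and 5.58 CPM in homozygotes and 13.9 and 17.7 CPM in heterozygotes at stage 6-7, and 6.43 and 5.02 CPM in homozygotes and 8.12 and 8.52 CPM in heterozygotes at stage 5. It lay lower in homozygotes at both stages and its interaction was -1.06 (adjusted p = 0.164; DESeq2 adjusted p = 0.0438). The EGF receptor list (11 tested, median 0.07) and the FGF and tracheal list (8 tested, median 0.12) had 0 calls by edgeR. An unadjusted p under 0.05 was found for 0 and 1 of their genes (0% and 12.5%, against 6.72% of all genes). In the Toll and Dorsal list it was found for 2 higher and 2 lower (28.6%). In the JNK and TNF list it was found for 1 higher and 2 lower (23.1%).

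Among 10 tested genes of cell death, p53 (0.85), grim (2.36) and the caspase gene Dronc (-0.61) had an unadjusted p under 0.05. They were 30% of the list, against 6.72% of all genes, and none was called by edgeR. The value of grim rests on very low levels and has an SE of 0.909. It had 0.112 and 0.0591 CPM in homozygotes at stage 5 and at most 0.499 CPM elsewhere. In the ecdysone list of 9 tested genes the nuclear receptor gene ftz-f1 had an interaction of 1.38 (adjusted p = 0.291), with 1.65 and 1.73 CPM in homozygotes and 1.32 and 1.16 CPM in heterozygotes at stage 6-7, and 28.1 and 16.9 CPM in homozygotes and 47.0 and 38.8 CPM in heterozygotes at stage 5. The gene overlaps lncRNA:CR45939 on the same strand, as grim does lncRNA:CR45975, and p53 lies opposite asRNA:CR46089. Among the leucyl aminopeptidases, 5 tested, S-Lap1 was the only call; S-Lap8 had 0 CPM in both homozygous stage 5 libraries and at most 0.406 CPM elsewhere, and no fold is given for it.

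Markers of other cells and conditions were looked at for shifts beside these values. Ovary and eggshell genes, which embryos should lack, summed to 1.65 to 2.62 CPM over the 8 libraries. This sum covers only the 3 of 11 genes that passed the filter on low counts. Pole cell genes (8 tested, median -0.16) and genes of sex determination and dosage compensation (11 tested, median 0.05) had 0 calls by edgeR; the X-linked sex signal gene sisA had an interaction of -0.60 (unadjusted p = 0.00438). Among the gut and hemocyte genes, 12 tested, the clotting factor gene Hml had 8.2 and 7.78 CPM in homozygotes and 2.48 and 4.2 CPM in heterozygotes at stage 6-7, and 0.855 and 1.86 CPM in homozygotes and 1.39 and 1.33 CPM in heterozygotes at stage 5 (interaction 1.23, adjusted p = 0.574). Heat shock genes had a median of 0.59 over 9 tested, with 8 above 0 and 0 calls by edgeR. An unadjusted p under 0.05 was found for 2, both higher (22.2%, against 6.72% of all genes). Replicates of Hsp68 lay far apart in 2 of the groups. It had 15.4 and 20.3 CPM in homozygotes and 1.82 and 26.0 CPM in heterozygotes at stage 6-7. At stage 5 it had 61.1 and 8.09 CPM in homozygotes and 95.5 and 102 CPM in heterozygotes. The part of heat shock or of these other cells in the called genes was not tested. Across the 227 tested genes of the lists with 0 calls by edgeR, DESeq2 called 8 (smg, pum, grn, tkv, tup, kay, ftz-f1 and Z600) and limma-voom 0. Of all genes, DESeq2 called 57 of the 9178 that it gave an adjusted p, and limma-voom 3 of 9360.

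**Figure D4:**
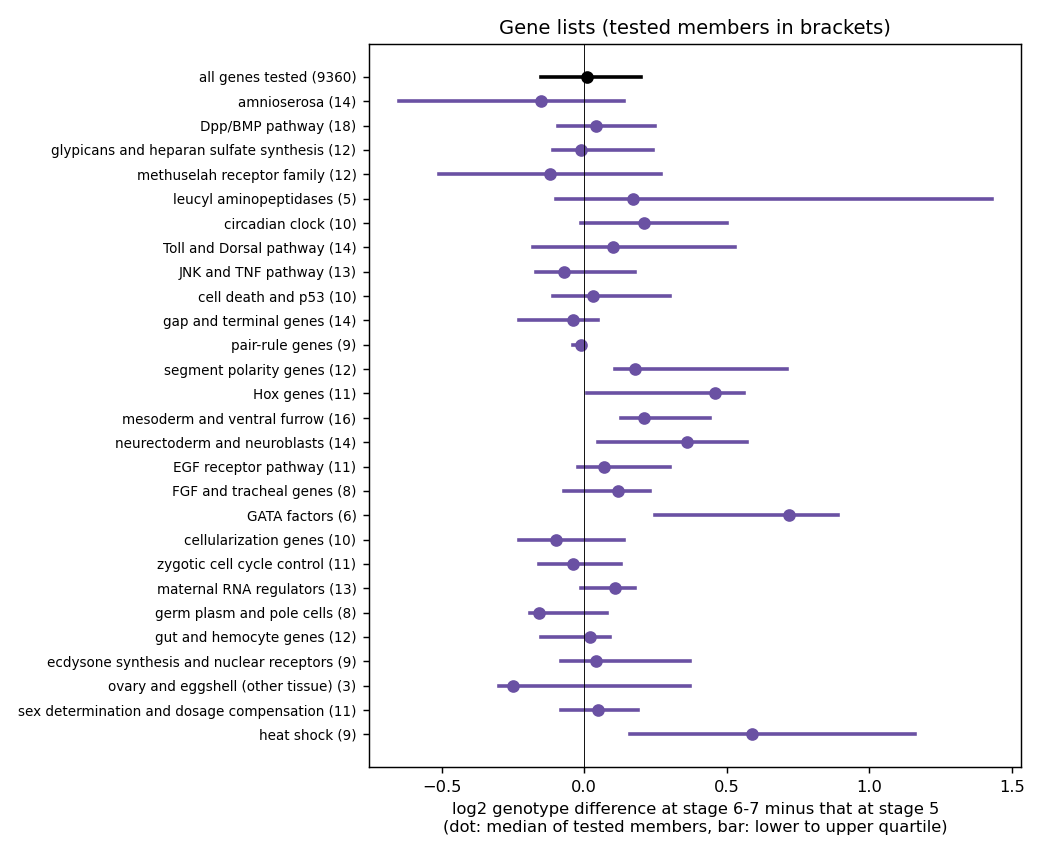
Median interaction (points) and lower to upper quartile (bars) of the tested members of each of the 27 gene lists, with all 9360 tested genes on top; the horizontal axis is the log2 genotype difference at stage 6-7 minus that at stage 5. GATA factors (0.72), heat shock (0.59), Hox (0.46) and neurectoderm genes (0.36) lie above the median of all genes, and most other lists lie within its quartiles, -0.15 to 0.20.

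By chromosome, 6 of the 7 calls lay among the 4045 tested genes of chromosome 3 and 1 among the 5142 placed elsewhere. An unadjusted p under 0.05 was found for 8.02% of tested genes on 3L and 8.0% on 3R, against 5.23% on 2L, 6.14% on 2R, 5.63% on X and 4.60% on chromosome 4. On X, 65 genes were higher and 22 lower. The counts were 51 and 34 on 2L, 68 and 46 on 2R and 170 and 154 on chromosome 3. Over all genes they were 369 and 260. Of the 100 genes with the smallest p, 66 lay on chromosome 3, which holds 44.0% of the tested genes that were placed. In 34 of the 100 the genotype difference had the same sign at both stages and was larger at stage 6-7, in 16 it had the same sign and was larger at stage 5, and in 50 the signs differed.

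How many genes were called depended on the test and on single libraries. DESeq2 called 57 genes (32 higher, 25 lower) with all 7 among them, and limma-voom 3. Leaving out homozygous stage 5 replicate 2, which rests that group on the library that stood apart, gave 296 calls (241 higher, 55 lower) with all 7 among them, whereas leaving out replicate 1 gave 14 (6 shared). Leaving out either heterozygous stage 5 library gave 3. The calls of mthl8 and Sarm were kept under every alternative run, and that of dlp under all but the test against a 1.5-fold change (adjusted p = 0.0506).

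**Figure D5:**
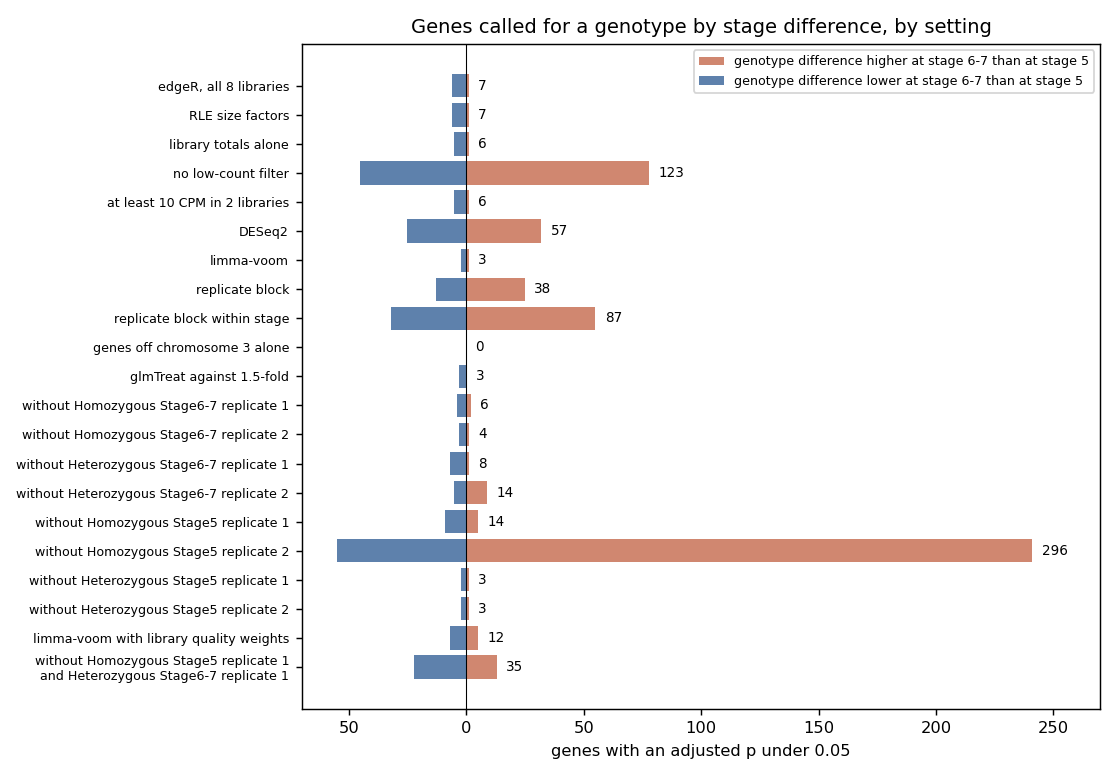
Number of genes called for the interaction (adjusted p under 0.05) in each setting; bars to the right count genes whose genotype difference was higher at stage 6-7 than at stage 5, bars to the left those where it was lower, and the number beside each bar is their sum. The sum is 7 with all 8 libraries, 57 with DESeq2 and 3 with limma-voom, and it is 296 without homozygous stage 5 replicate 2.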

How the data were processed

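Libraries of 100 bp paired reads with 200 bp inserts were made from total RNA of whole embryos, per the labels' protocols. The authors deposited 1 table of whole-number, unnormalized read counts per gene for each library. The tools were STAR and HTSeq, per the submitters' processing notes. Versions, build, gene models and strandedness were not given in the sources used here. Overlapping and antisense genes may therefore share reads. The HTSeq summary lines, which name no gene and held 12.89% to 18.22% of each total, entered neither library sizes nor tests. Of 17468 gene IDs, 17188 matched the Ensembl 115 annotation of BDGP6.54, which gave symbols and positions; 280 did not and were tested but not placed. No 2 libraries were identical.

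Groups came from the labels. Counts were filtered with filterByExpr (minimum count 10), scaled with TMM (factors 0.907 to 1.068) and fitted in edgeR 4.0.16 (R 4.3.3; robust glmQLFit, glmQLFTest) with 1 mean per group over 8 libraries and a common estimate of the spread per gene. The genotype difference at each stage, the stage difference in each genotype and the interaction were tested 2-sided, with Benjamini-Hochberg adjustment over 9360 genes. Standard errors are the absolute log2 value over the square root of F, and intervals are 95%. The fit was tested on simulated data. The 27 lists (316 symbols, 308 with counts here) got no set test; Med, wg, esg, btl, vas, nvd, nos and phm are not analysed here. The contrast and the lists were chosen with earlier results of these data known.

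Named genes were all called genes (at most 30), the 10 smallest p in each direction among uncalled genes that average 5 CPM or more and have the genotypes apart at 1 or both stages, genes called in opposite directions at the stages, all amnioserosa genes, the 3 smallest p of every other list, and the 5 smallest p of genes called by DESeq2 alone. Other names were chosen after their values were seen. Alternatives were RLE size factors, library totals alone, a floor of 10 CPM in 2 libraries, no filter on counts, DESeq2 1.42.0, limma-voom (limma 3.58.1), a replicate block shared by all groups or within stage, genes off chromosome 3 alone, glmTreat against 1.5-fold, and omission of each library in turn, which assumes that the lone library of its group varies like the others. Library quality weights and leaving out 2 libraries together were added after seeing the data.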

Additional observations from a re-analysis of the deposited data

Results flagged for a closer look

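For 7 genes the test of the difference itself found that the homozygous against heterozygous difference at stage 6-7 was not the one at stage 5. The log2 value of the later difference minus the earlier one was -2.45 for mthl8, -1.72 for Sarm, -2.29 for cry, -2.03 for S-Lap1, -3.68 for Prat2, -1.03 for CG8860 and 1.41 for dlp. The largest in size, that of Prat2, rests on 4 and 3 counts in homozygotes at stage 6-7. Groups of 2 libraries are too small to test for single outlying samples. The 2 libraries said to stand apart were named from their places on the first principal component.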

How the results depend on the processing

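Against 7 interaction calls with all libraries, the count was 123 without a filter (78 higher, 45 lower), 57 with DESeq2, 3 with limma-voom, 3 with glmTreat, 12 with library quality weights, 0 among genes off chromosome 3 alone (281 with an unadjusted p under 0.05) and 35 without homozygous stage 5 replicate 1 and heterozygous stage 6-7 replicate 1. On chromosome 3 these were 70, 38, 3, 3, 10 and, for the last, 24, and elsewhere 48, 16, 0, 0, 2 and 11, with 0 for library totals alone. Leaving out single libraries gave 3 to 296, or 3 to 152 on chromosome 3 and 0 to 135 elsewhere; the count moved over 1.5 times without homozygous stage 5 replicate 1 (14) or 2 (296), heterozygous stage 5 replicate 1 or 2 (3 each), homozygous stage 6-7 replicate 2 (4) or heterozygous stage 6-7 replicate 2 (14). Genotype calls at stage 6-7 (166) were 285 without a filter, 88 at 10 CPM, 17 off chromosome 3 alone, 63 with glmTreat, 89 to 218 with a library left out and 299 with both out. At stage 5 (152) they were 397, 255 with DESeq2, 33 off chromosome 3 alone, 25 with glmTreat, 87 with quality weights, 66 to 805 with a library left out and 326 with both out. Stage calls were 3036 in homozygotes and 2782 in heterozygotes off chromosome 3 alone, and 2812 and 2273 with glmTreat. With the replicate block the interaction calls were 38 (25 on chromosome 3, 11 elsewhere) and with the block within stage 87 (52 and 31), and the stage 5 calls 249 and 340; deviations of same-numbered libraries correlated at -0.062 to 0.043, so the numbers were not taken as pairs. With libraries left out, 11 uncalled interactions changed sign, over ranges of -0.0028 to 0.40 for upd1, -0.02 to 0.38 for htl, -0.12 to 0.48 for stumps, -0.14 to 0.57 for S, -0.44 to 0.07 for zen, -0.37 to 0.07 for byn, -0.21 to 0.0023 for prd, -0.66 to 0.17 for Cp18, -0.55 to 0.20 for Yp3, -0.30 to 0.08 for peb and -0.12 to 0.13 for Doc2. Calls of named genes were lost as follows: cry with limma-voom (adjusted p = 0.0617) or without heterozygous stage 5 replicate 1 (0.0536) or 2 (0.055); S-Lap1 with limma-voom (0.0885), glmTreat (0.0697) or without the same libraries (0.0888 and 0.0667); Prat2 with limma-voom (0.0885) or glmTreat (0.0564); CG8860 with library totals alone (0.0511), limma-voom (0.0547) or glmTreat (0.948). Causes were not tested. With 2 libraries a group, an interval of 0.422 to either side at the median limits what can be seen.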
